A study of Mus musculus with 40 samples.

Results

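The start of each mouse autosome, from 3 to 6 Mb in the deposited coordinates, was examined for dimethylation of lysine 9 of histone H3 (H3K9me2) in oocytes. Mouse chromosomes are telocentric, so the centromere and its satellite repeats lie at one end. All distances from the start are counted from 3 Mb of the deposited coordinates. The first window used lies there on some chromosomes and later on others, at 3100001 on chromosome 10 and 3110001 on chromosome 11. The first stretches therefore do not hold windows of all chromosomes, and the first assembled base of each was not determined. The members are the 10 kb windows of 19 autosomes that start between 3 and 6 Mb and hold a read in at least 1 of 6 H3K9me2 libraries. They number 5565 of the 255057 windows with a read in the whole table. Of 5700 possible positions, 34 are not among the windows used here and 101 hold no read in any library. Of the 34, 30 lie in the first 300 kb of their chromosomes. In all, 5192 members hold a read in every library.

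The study measured RNA, DNA methylation and H3K9me2 in germinal-vesicle oocytes, the fully grown oocytes of the ovary before meiotic maturation, and compared control oocytes with oocytes lacking G9a (G9a cKO) or both G9a and Glp (G9a-Glp cDKO, here cDKO). Each sample pooled 100 to 200 oocytes dissected by hand from mice aged 22 to 25 days. H3K9me2 was measured by ultra-low-input native chromatin immunoprecipitation in 2 libraries per genotype. RNA was measured in 11 libraries, 3 controls and 3 G9a cKO with the title prefix GKAO and 3 controls and 2 cDKO with the prefix GKAQ. The labels mark both deletions as conditional. The Cre driver, the strain and what the controls carry are not given in the sources used here. The labels do not say whether replicate pools came from different animals, so p-values measure only the spread between these samples.

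G9A (encoded by Ehmt2) and GLP (Ehmt1) form a complex that places H3K9me2, a mark of repressed chromatin that covers broad stretches of the genome outside active genes. The satellite repeats of the centromere are known for another form of the mark, trimethylation of the same lysine, placed by SUV39H1 and SUV39H2 and bound by HP1 proteins. The windows described here lie beside those repeats, in assembled sequence, and hold both gene-poor and gene-rich stretches. How well reads align in these windows was not measured. The share of the first 3 Mb covered by RefSeq protein-coding genes ranged from 11.6% on chromosome 13 to 67.8% on chromosome 2, and the number of such genes from 3 on chromosome 3 to 119 on chromosome 19.

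Below, density is the mean number of reads per 1000000 reads of the library (RPM) per window, and it is given as a percent of the density in all other autosomal windows of the same library. That comparison level lay between 3.99 and 4.02 RPM per window in all 6 libraries. All values are shares of a library's reads: a loss of the mark shared by all regions cannot be seen on this scale, and no input library enters the values. The control libraries were scaled to 7048784 and 19128881 reads, the G9a cKO libraries to 1857144 and 1109191, and the cDKO libraries to 1723142 and 1881848. Depth and genotype therefore cannot be told apart. A member window held a median of 25 and 70 reads in the controls and of 4 to 7 reads in the mutants.

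The 250 bases upstream of 4 genes of the region are shown as examples. These genes had more RNA in at least 1 of the mutants, and their RefSeq start lies within 1 kb of the measured locus. Vmn1r62 (1 CG) and Gm13267 (27 CG) met the same conditions and are not shown. Of the 4 shown, a pair is rich in CG and the other pair nearly lacks it. Sequences are from RefSeq (GRCm38.p6), 5′ to 3′ on the strand of the gene (the forward strand in all 4), with each CG in capitals. Of 15 genes of the region looked up for a change of RNA, 11 had an entry.
Casd1, chr6:4600661-4600910: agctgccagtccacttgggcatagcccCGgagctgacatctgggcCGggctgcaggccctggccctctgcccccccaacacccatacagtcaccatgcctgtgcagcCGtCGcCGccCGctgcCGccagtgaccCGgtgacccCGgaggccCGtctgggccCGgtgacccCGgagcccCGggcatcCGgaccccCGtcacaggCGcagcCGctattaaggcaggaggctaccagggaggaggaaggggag
Brsk1, chr7:4690678-4690927: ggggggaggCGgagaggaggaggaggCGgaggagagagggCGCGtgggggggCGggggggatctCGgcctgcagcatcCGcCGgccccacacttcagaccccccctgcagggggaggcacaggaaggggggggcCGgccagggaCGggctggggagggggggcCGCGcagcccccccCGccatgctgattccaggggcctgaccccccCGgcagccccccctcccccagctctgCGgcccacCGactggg
Fam171a1, chr2:3113974-3114223: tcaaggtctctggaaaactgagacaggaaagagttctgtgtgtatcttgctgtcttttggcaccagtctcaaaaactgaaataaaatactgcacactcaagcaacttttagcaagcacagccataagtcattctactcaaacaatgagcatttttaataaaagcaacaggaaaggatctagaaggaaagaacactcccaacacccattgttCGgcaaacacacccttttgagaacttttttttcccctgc
Heatr7b2 (Mroh2b in RefSeq), chr15:4898487-4898736: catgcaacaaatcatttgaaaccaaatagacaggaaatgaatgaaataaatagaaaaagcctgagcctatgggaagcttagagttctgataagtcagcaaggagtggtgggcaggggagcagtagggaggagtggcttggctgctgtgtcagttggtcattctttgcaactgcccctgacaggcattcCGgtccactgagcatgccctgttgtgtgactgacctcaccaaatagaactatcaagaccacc
The letters CG were counted, which read the same on both strands and overlap no other motif searched. Casd1 held 17, Brsk1 16, and Fam171a1 and Heatr7b2 1 each. Over 32851 RefSeq promoters of this length the median was 6, and 92.1% held at least 1.

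In controls the chromosome starts had a lower density of H3K9me2 reads than the rest of the autosomes, and in both mutants a higher one. Density was 86.9% and 87.3% of the rest in the 2 control libraries, 117% and 113% in the G9a cKO libraries, and 109% and 102% in the cDKO libraries. The genotypes did not overlap, and every mutant library lay above the level of the rest. The 5565 windows make up 2.33% of the autosomal windows with a read. They took 2.03% and 2.04% of the autosomal reads in controls, 2.72% and 2.63% for G9a cKO, and 2.53% and 2.37% for cDKO. Relative to the rest of the autosomes, density was 1.32-fold higher in G9a cKO than in control (log2 difference 0.40) and 1.21-fold higher in cDKO (0.27). Standard deviations of the log2 ratio between the libraries of a genotype were 0.005, 0.036 and 0.067 for control, G9a cKO and cDKO. An exact two-sided permutation test of 2 against 2 libraries gave p = 0.333 for each pair of genotypes, the smallest it allows.

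Over all 6 libraries the mean log2 ratio of the start to the rest was 0.03 (exact sign-flip permutation over libraries, adjusted p = 0.969 over 3 comparison regions). Controls and mutants lie on opposite sides and offset each other in this mean. The test therefore cannot speak to the start within a genotype. The same test gave a mean log2 ratio of 0.002 against the next 3 Mb and -0.03 against the last 3 Mb of each chromosome, with the same adjusted p. The last 3 Mb held 102% and 102% of the rest in controls, with G9a cKO at 106% and 104% and cDKO at 106% and 104%, so the far end of the chromosomes showed a smaller step between genotypes than the start. Against that far end, the start was 1.28-fold higher in G9a cKO than in control and 1.17-fold higher in cDKO, again at the smallest exact permutation p, 0.333.

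A block is 3 Mb of a chromosome, tiled from 3 Mb of the deposited coordinates, and its level is log2 of the mean RPM per window. Across 801 autosomal blocks, each was tested with limma, and a block is called at an adjusted p under 0.05 (Benjamini-Hochberg over all blocks). All 19 start blocks rose in G9a cKO against control, where 26.6% of all blocks were called higher and 31.2% lower. In cDKO, 17 of 19 rose, where 22.1% of all blocks were called higher. The 2 that did not pass were chromosome 4 (log2 change 0.13 ± 0.069 SE, adjusted p = 0.125) and chromosome 13 (0.003 ± 0.057, adjusted p = 0.967). No start block fell in either mutant, where 27.0% of all blocks were called lower in cDKO. The median log2 change was 0.41 over the start blocks against -0.02 over all blocks in G9a cKO, and 0.27 against -0.03 in cDKO. Both comparisons use the same 2 control libraries.

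**Figure D1:**
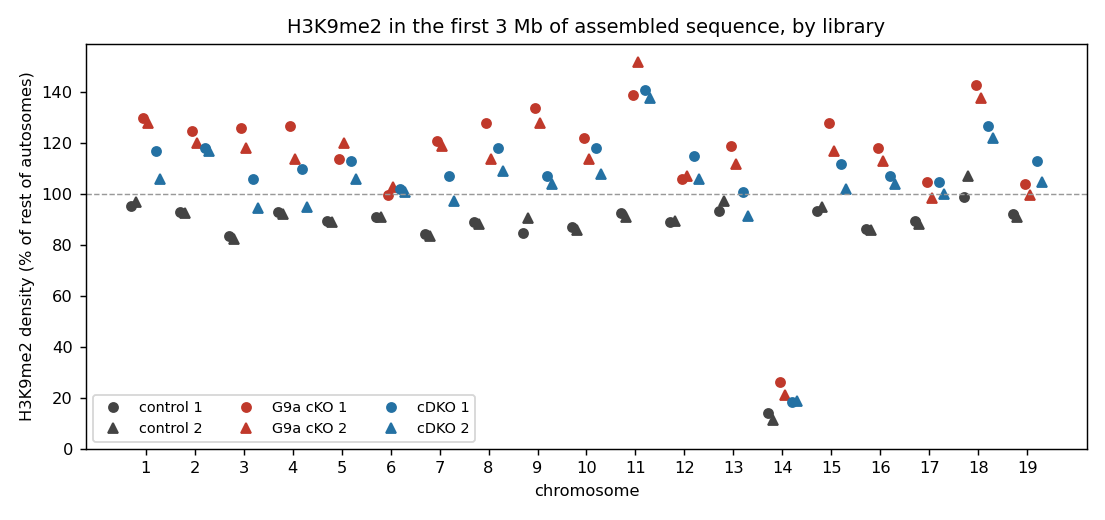
H3K9me2 density in the first 3 Mb of each autosome as a percent of the rest of the autosomes (dashed line, 100%), 1 point per library, control in grey, G9a cKO in red, cDKO in blue. Both G9a cKO libraries lie above both controls on all 19 chromosomes, and chromosome 14 stands apart at 11.4% to 26.1%.

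Looked at library by library, both G9a cKO libraries lay above both controls on 19 of 19 chromosomes, where this held for 35.7% of all autosomal blocks. Both cDKO libraries lay above both controls on 18 of 19, where it held for 34.2% of all blocks, the exception being chromosome 13. Controls were below the rest of the autosomes in both libraries on 18 chromosomes. Chromosome 18 was the exception, at 98.8% and 107%. Both G9a cKO libraries exceeded the rest on 15 chromosomes and both cDKO libraries on 13. For these counts of chromosomes below or above the rest, shares over all blocks are not given here. Of the 19 start blocks, 14 in G9a cKO and 12 in cDKO lay in the top 10% of all blocks by change.

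Chromosome 11 had the largest change in cDKO and, after chromosome 14, in G9a cKO. Its start held 92.7% and 91.1% of the rest in controls, 139% and 152% for G9a cKO, and 141% and 138% for cDKO. The 4 mutant libraries lay together, well above the controls. The log2 change was 0.66 ± 0.064 in G9a cKO (adjusted p = 1.89e-05) and 0.60 ± 0.064 in cDKO (adjusted p = 0.000144), the largest of all blocks of that chromosome in both contrasts.

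Chromosome 9 showed a larger change in G9a cKO than in cDKO. Controls held 84.9% and 90.5% of the rest, G9a cKO 134% and 128%, and cDKO 107% and 104%. The 3 genotypes formed 3 separate levels. Here the log2 change was 0.58 ± 0.051 in G9a cKO (adjusted p = 1.15e-05) and 0.26 ± 0.051 in cDKO (adjusted p = 0.00185), and cDKO was lower than G9a cKO by a tested difference of -0.31 ± 0.051 (adjusted p = 0.02), a call lost without cDKO replicate 2 (adjusted p = 0.425).

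Chromosome 3, whose first 3 Mb hold the fewest protein-coding genes, had the lowest control level of any block on that chromosome. Controls held 83.6% and 82.5%, G9a cKO 126% and 118%, and cDKO 106% and 94.6%. One cDKO library thus remained below the rest of the autosomes, but above both controls. The log2 change was 0.55 ± 0.057 in G9a cKO (adjusted p = 2.31e-05) and 0.26 ± 0.057 in cDKO (adjusted p = 0.00342, and 0.0541 without cDKO replicate 1).

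Chromosome 19, the one with the most protein-coding genes, had the smallest change in G9a cKO, next to chromosome 6. Controls held 92.3% and 91.0%, G9a cKO 104% and 99.8%, and cDKO 113% and 105%. It was the only chromosome on which both cDKO libraries lay above both G9a cKO libraries, an order found in 27.3% of all blocks. Its log2 change was 0.15 ± 0.050 in G9a cKO (adjusted p = 0.0198) and 0.25 ± 0.050 in cDKO (adjusted p = 0.00235). The first of these calls was lost without control replicate 1 (adjusted p = 0.0967) or 2 (0.129).

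Chromosome 13 rose in G9a cKO and did not pass in cDKO. Controls held 93.6% and 97.2%, G9a cKO 119% and 112%, and cDKO 101% and 91.4%. The cDKO libraries lay on either side of the controls. The direct comparison of cDKO with G9a cKO gave -0.27 ± 0.057 (adjusted p = 0.0416), and this call was lost without cDKO replicate 2 (adjusted p = 0.425).

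Over the other start blocks, chromosome 14 apart, the log2 change in G9a cKO ran from 0.155 on chromosome 6 to 0.52 on chromosome 7, and in cDKO from 0.13 on chromosome 4 to 0.38 on chromosome 10. Between the mutants, cDKO was called lower than G9a cKO at 5 of 19 starts (chromosomes 1, 3, 7, 9 and 13), where 2.75% of all blocks were called lower, and higher at none, where 2.12% were called higher. At an unadjusted p under 0.05, 9 start blocks differed between the mutants, and the share over all blocks is not given here. Both G9a cKO libraries lay above both cDKO libraries on 12 chromosomes, where 23.8% of all blocks showed that order. The median difference of cDKO from G9a cKO was -0.13 over the start blocks and 0.01 over all blocks.

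**Figure D2:**
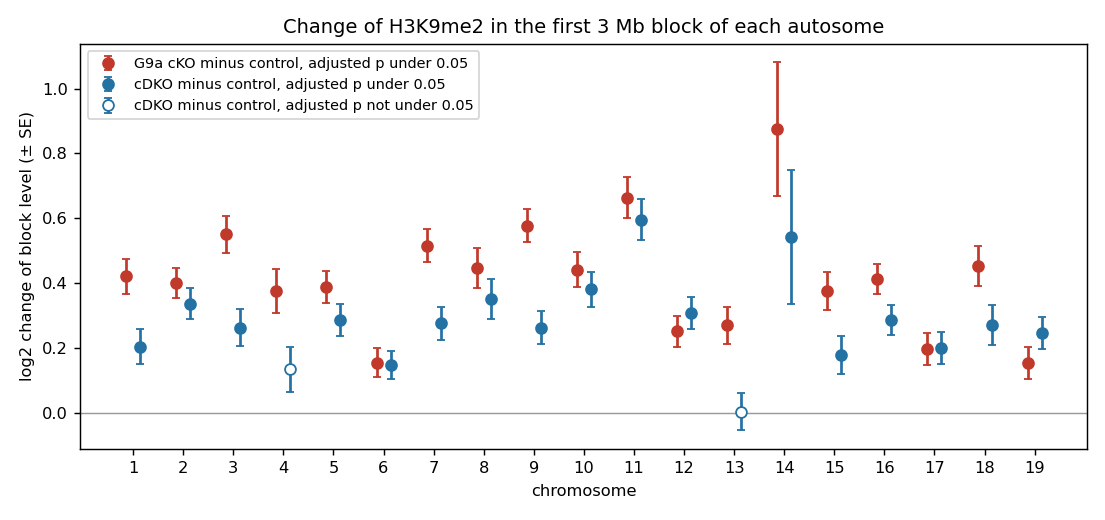
Fitted log2 change of the first 3 Mb block of each autosome against control, with its standard error as bars (limma, 2 libraries per genotype), G9a cKO in red and cDKO in blue, open circles where the adjusted p was not under 0.05. All G9a cKO points are above 0, from 0.154 on chromosome 19 to 0.875 on chromosome 14, and the 2 open circles are cDKO on chromosomes 4 and 13.

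The calls rest on block means. For the other fits of this paragraph, shares over all blocks are not given here. When the level of a block was taken as the median log2 value of its windows, 12 start blocks were called higher in G9a cKO and 7 in cDKO. Without cDKO replicate 1, 10 were called higher in cDKO, with the calls of chromosomes 1, 3, 6, 14, 15, 17 and 18 lost. Without control replicate 1, 13 were called (1, 6, 15 and 18 lost), and without control replicate 2, 12 (1, 6, 14, 15 and 17 lost). In G9a cKO, 17 were called without either control, chromosomes 6 and 19 being lost. Of the starts called lower in cDKO than in G9a cKO, none remained called without cDKO replicate 2 and 10 were called without either G9a cKO library.

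The difference between the mutants went with the share of the start covered by genes, and less closely with their number. Across the 18 start blocks other than chromosome 14, the log2 difference of cDKO from G9a cKO was higher where more of the block was covered by protein-coding genes (Pearson's r = 0.715, Spearman's rho = 0.732, and r = 0.746 without the 2 blocks farthest from the median coverage). For cDKO against control r was 0.641 (rho = 0.586, and r = 0.535 without those 2), and for G9a cKO against control it was -0.06 (rho = -0.13, and r = -0.34 without those 2). With the number of protein-coding genes in place of their coverage, r was 0.416 for cDKO from G9a cKO (rho = 0.509). It was 0.308 for cDKO against control (rho = 0.483) and -0.09 for G9a cKO against control (rho = -0.13). Without the 2 blocks farthest from the median number, these r were 0.438, 0.674 and 0.288. So for cDKO against control, number then went with the change more closely than coverage. These are descriptions over 18 blocks that share the same 6 libraries and their depths.

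The starts of the chromosomes changed most in the stretch nearest the centromere. In the first 250 kb of assembled sequence, density was 62.7% and 63.8% of the rest in controls, with G9a cKO at 125% and 114% and cDKO at 103% and 92.1%. Against control, this is 1.89-fold higher in G9a cKO (log2 difference 0.92) and 1.54-fold higher in cDKO (0.62), at an exact permutation p of 0.333 for each, the smallest that 2 against 2 allows. In each mutant, both libraries lay above both controls on 18 of 19 chromosomes, where this held for 33.6% (G9a cKO) and 33.2% (cDKO) of 9576 autosomal bins of 250 kb. The exception in both was chromosome 10, whose first 100 kb hold no member window. It held 93.8% and 93.9% in controls, 117% and 90.2% for G9a cKO, and 94.9% and 82.4% for cDKO.

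**Figure D3:**
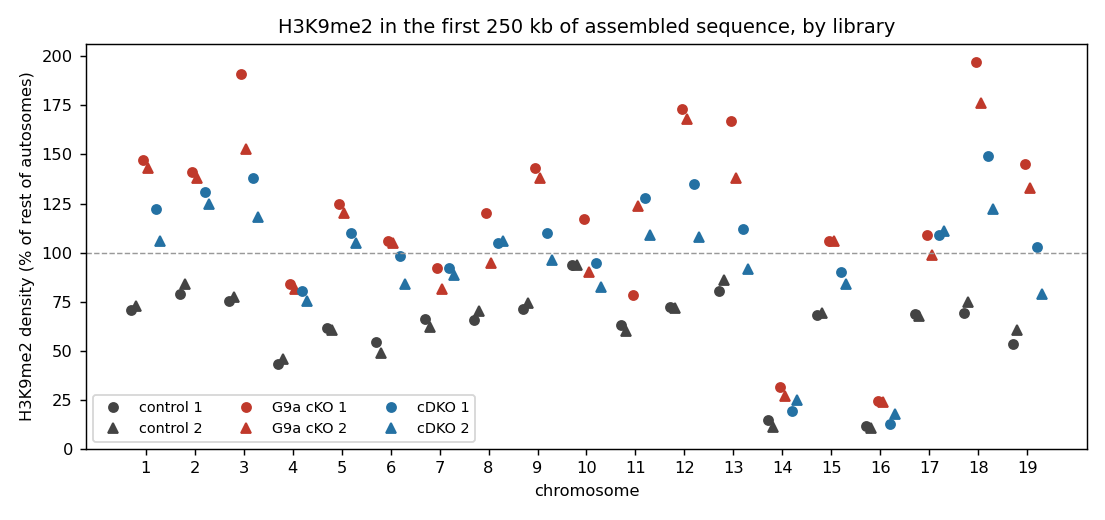
H3K9me2 density in the first 250 kb of assembled sequence of each autosome as a percent of the rest of the autosomes (dashed line, 100%), 1 point per library, control in grey, G9a cKO in red, cDKO in blue. Control points lie below 100% on every chromosome, and chromosomes 14 and 16 are low in all 6 libraries.

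Chromosome 18 had the largest step of G9a cKO in this stretch. Its first 250 kb held 69.3% and 74.8% of the rest in controls, with G9a cKO at 197% and 176% and cDKO at 149% and 122%. All 4 mutant libraries were above the rest of the autosomes and both controls below it, a 2.59-fold difference for G9a cKO and 1.87-fold for cDKO. On chromosome 12 the values were 72.4% and 71.8% in controls, 173% and 168% for G9a cKO, and 135% and 108% for cDKO, in the same order. Chromosome 16 was low throughout, with 11.5% and 10.5% in controls, with G9a cKO at 24.3% and 24% and cDKO at 12.7% and 17.5%. Both mutants still lay above the controls there. Chromosome 11, with the largest change over 3 Mb, has 6 member windows in its first 250 kb, and gave 63.3% and 60.2% in controls, 78.3% and 124% for G9a cKO, and 128% and 109% for cDKO, where its 1.91-fold difference was the largest of the 19.

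The difference between genotypes was larger in the first 250 kb than in any later 250 kb bin of the 3 Mb, and did not shrink evenly after it. Over the 18 autosomes other than chromosome 14, controls rose from 65.9% and 67.3% in the first 250 kb to 80.6% and 81.3% in the second and 90.0% and 88.0% in the third, and stood at 95.8% and 96.0% in the last 250 kb of the 3 Mb. The G9a cKO libraries started at 131% and 120% and ended at 117% and 115%. The cDKO libraries started at 108% and 96.6% and ended at 112% and 105%. All 6 libraries were lower in the first 10 kb than over the first 250 kb, with controls at 36.3% and 37.0%, G9a cKO at 92.5% and 80.2%, and cDKO at 64.6% and 59.1%, a stretch that holds 9 member windows. Between 2.5 and 2.75 Mb from the start the G9a cKO libraries rose again to 138% and 132% and the cDKO libraries to 124% and 111%, with controls at 97.5% and 97.9%. There G9a cKO was 1.38-fold above control, against 1.18-fold in the bin before it and 1.21-fold in the bin after it. In successive 3 Mb steps from the start, density relative to the rest was 1.32-, 1.21-, 1.09-, 1.08- and 1.03-fold that of controls in G9a cKO, and 1.21-, 1.095-, 1.04-, 1.02- and 0.971-fold in cDKO. The 6th and 7th steps gave 1.10- and 1.10-fold in G9a cKO and 1.03- and 1.04-fold in cDKO.

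The end of the 3 Mb is set by the rule and not by a step in the data. The last 100 kb inside held 91.9% and 93.6% of the rest in controls, with G9a cKO at 106% and 105% and cDKO at 104% and 99.4%. The first 100 kb outside held 89.4% and 93.8%, 112% and 105%, and 103% and 100.0%. The next 3 Mb held 92.0% and 93.1% in controls, 114% and 110% for G9a cKO, and 104% and 99.2% for cDKO. Relative to this neighbouring stretch the start was 1.09-fold higher in G9a cKO than in control and 1.10-fold higher in cDKO (exact permutation p = 0.333 for each).

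Ranked among all autosomal windows of the same genotype, fewer members lay at the low end in the mutants than in controls, and more at the high end. In controls, 18.1% of members lay in the lowest 10% and 2.98% in the highest. In G9a cKO these shares were 9.15% and 16.3%, and in cDKO 10.9% and 14%, so most members lay in neither. In cDKO the lowest 10% held 9.37% of all windows, still below the share of members. In the first 250 kb, 46.9% of windows lay in the lowest 10% in controls, 16.3% in G9a cKO and 21.8% in cDKO, and the share in the highest 10% was 0.752%, 22.6% and 13.0%. At a median of 4 to 7 reads per window, the mutants' shares carry more counting error than those of controls.

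The start of chromosome 14 held almost no signal and is described apart. It has 253 members and 47 windows with no read, and 73 of its members hold a read in every library. Density was 14.2% and 11.4% of the rest in controls, with G9a cKO at 26.1% and 21% and cDKO at 18.3% and 18.9%. All 6 libraries were low, with 1013 and 2225 reads in the controls and 236 to 491 in the mutants over the whole 3 Mb. The log2 change was 0.88 ± 0.206 in G9a cKO (adjusted p = 0.00339) and 0.54 ± 0.206 in cDKO (adjusted p = 0.0457), with the largest standard error of any start block. The cDKO call was lost without control replicate 2 (adjusted p = 0.289) or either cDKO library (0.238 and 0.259). Only 10 of its windows reached at least 50% of the level of the rest in controls, the first of them starting at position 5840001. Of 45 RefSeq protein-coding genes there, 42 have names of the form Gm followed by a number, which are provisional gene models. Controls reached 53.8% of the rest in the next 3 Mb of the chromosome and 106% in the 3 Mb after that. Leaving the chromosome out, the starts held 90.3% and 90.8% of the rest in controls, 121% and 117% for G9a cKO, and 113% and 105% for cDKO.

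Single 10 kb windows were tested over all 255057 windows with a read. In G9a cKO, 255 members were called higher and none lower (limma, adjusted p under 0.05). That is 4.58% of members, where 1.75% of all windows were called higher and 0.102% lower. At an unadjusted p under 0.05, 1156 of 5565 members were higher and 185 lower, where 48990 of all 255057 windows stood in either direction. Chromosome 14 gave 60 of the 255, and 58 of these had at most 3 reads in both controls, so no fold is given for them. A window without reads takes a value set by the depth of its library, which bears on those 60 in particular. Without chromosome 14, 195 members were called, 3.67%. In cDKO no member was called, where 0.0% of all windows were. At an unadjusted p under 0.05 stood 792 members, 715 of them higher, and 22952 of all windows. Between the mutants no member was called either. There 765 members stood at an unadjusted p under 0.05, a share similar to that of all windows (34157). For the fits that follow, shares over all windows are not given here. With precision weights on the recovered reads, the members called higher were 1021 in G9a cKO and 379 in cDKO, and no member was called in G9a cKO when G9a cKO replicate 2 or either cDKO library was left out.

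The 10 called windows with the largest change all lie on chromosome 14 and have 0 to 4 reads in each control. Among called windows with more than 3 reads in a control, a restriction chosen after their values were seen, the largest change with at least 10 reads in every control lay at chr9:5850001-5860000. It held 2.27 and 2.51 RPM in controls (16 and 48 reads), 15.1 and 17.1 RPM in G9a cKO (28 and 19 reads), and 6.96 and 4.25 RPM in cDKO (12 and 8 reads). The G9a cKO libraries lay far above the others, with a log2 change of 2.75 ± 0.35 (adjusted p = 0.0355). At chr2:3380001-3390000 the values were 5.11 and 3.03 RPM in controls, with G9a cKO at 22.6 and 18.9 RPM and cDKO at 8.12 and 5.85 RPM, a log2 change of 2.40 ± 0.32 in G9a cKO (adjusted p = 0.0355). The window chr6:3600001-3610000 held 2.70 and 3.08 RPM in controls, 13.5 and 16.2 RPM for G9a cKO, and 16.8 and 5.85 RPM for cDKO. It changed by 2.36 ± 0.43 in G9a cKO on the log2 scale (adjusted p = 0.0398), and its 2 cDKO libraries disagreed. Calls of all 3 windows were lost without G9a cKO replicate 2 (adjusted p from 0.0569 to 0.0771) or either cDKO library (0.0741 to 0.0775). In these windows the cDKO values lay between the other genotypes or reached those of G9a cKO.

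The 5 members highest in controls are described next; as they were chosen by their control values, lower values in the mutants are no finding. Of these, chr13:3370001-3380000 rose in G9a cKO, from 7.38 and 5.54 RPM in controls to 16.2 and 14.4 RPM, with 8.71 and 8.5 RPM in cDKO (log2 change in G9a cKO 1.25 ± 0.26, adjusted p = 0.0457). That call was lost without any 1 of the 6 libraries (adjusted p from 0.0581 to 0.574). The other 4 did not pass, with adjusted p from 0.171 to 0.696. At chr4:4070001-4080000, controls held 6.38 and 6.59 RPM, G9a cKO 3.77 and 2.70 RPM, and cDKO 5.80 and 4.78 RPM. At chr13:3790001-3800000, controls held 7.94 and 5.44 RPM, G9a cKO 4.31 and 2.70 RPM, and cDKO 4.64 and 2.13 RPM.

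Windows were also sorted by oocyte RNA, into those with no RNA locus (45.2% of members), with loci under 10 RPM (29.4%) and with a locus of at least 10 RPM (25.4%). Elsewhere on the autosomes these classes make up 52.2%, 23.4% and 24.4%, so the starts are not made of one class. Each class was compared with the same class elsewhere. Without chromosome 14, members with no RNA locus held 89.0% and 89.0% of their class in controls, with G9a cKO at 125% and 121% and cDKO at 113% and 104%. Members with an abundant RNA locus held 94.1% and 95.8% in controls, 112% and 109% for G9a cKO, and 110% and 105% for cDKO. In all 3 classes the controls lay below 100% and all mutant libraries above it. With chromosome 14 included, 1 cDKO library fell to 97.3% in the class with no RNA locus. The step was smaller in the abundant class, 1.16-fold against 1.38-fold in G9a cKO and 1.13-fold against 1.22-fold in cDKO, a difference that was not tested.

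**Figure D4:**
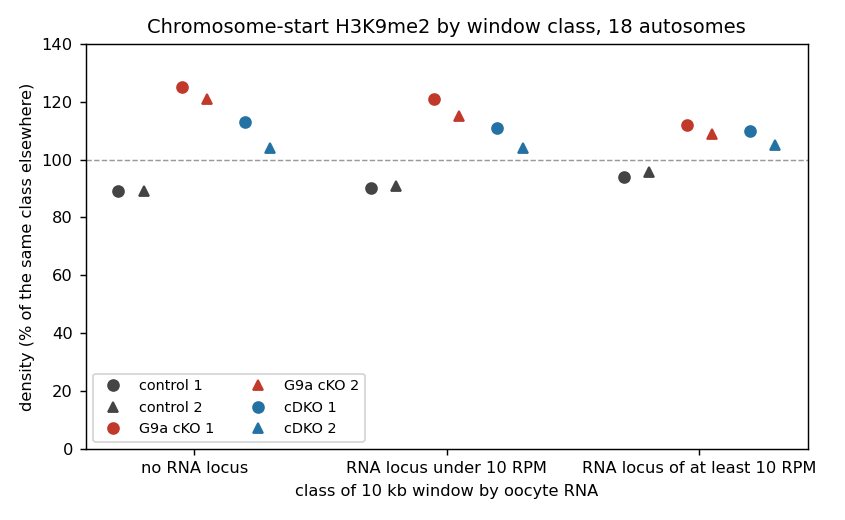
H3K9me2 density of chromosome-start windows as a percent of windows of the same RNA class elsewhere on the autosomes (dashed line, 100%), 18 autosomes without chromosome 14, 1 point per library, control in grey, G9a cKO in red, cDKO in blue. Controls lie below 100% and mutants above it in each class, and the gap is narrowest where a locus of at least 10 RPM overlaps the window.

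Compared with the same windows in controls and not with the class elsewhere, the change in cDKO differed in size between the classes, which was not tested. On the RPM scale, the log2 change of member windows in cDKO was 0.17 with no RNA locus, 0.26 with loci under 10 RPM and 0.43 with a locus of at least 10 RPM. In G9a cKO it was 0.38, 0.43 and 0.39. Abundantly transcribed windows elsewhere moved too: they held 90.9% and 89.3% of the autosomal level in controls, with G9a cKO at 101% and 103% and cDKO at 109% and 107%.

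The RNA libraries first serve to check the deletions. Ehmt2, which encodes G9A, was measured at 5.27 to 8.23 RPM in GKAO controls and 0.942 to 6.01 RPM in G9a cKO (log2 change -1.55 ± 0.51, limma, adjusted p = 0.0971), so its RNA did not pass the test. In cDKO it was 2.85 and 2.96 RPM against 5.03 to 12.5 RPM in GKAQ controls (-1.45 ± 0.57, adjusted p = 0.121). Ehmt1, which encodes GLP, fell in cDKO from 68.3 to 90.5 RPM in controls to 17.7 and 21.3 RPM (-2.06 ± 0.20, adjusted p = 1.09e-21) and was 66.9 to 75.9 RPM in G9a cKO. Oocyte markers were abundant: 9 of 10 were matched, all above 10 RPM, with a summed level of 10200 to 12400 RPM over the libraries. Of 10 granulosa cell markers, 1 reached 10 RPM, with a summed level of 46.6 to 73.8 RPM. The 1 of 4 blood markers that was matched had no read. In such pools, a lower level per oocyte and fewer oocytes with the RNA cannot be told apart.

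Of 25 genes listed for heterochromatin (writers, erasers and readers of H3K9 methylation and their partners), 20 were matched to the RNA table. Cbx3, an HP1 protein, rose in G9a cKO (0, 2 and 2 reads in GKAO controls against 10, 11 and 5 reads, limma, adjusted p = 0.0225). The ratio at equal depth was 5.2 (exact 95% interval for counting error 1.8 to 20.5). Its G9a cKO level was 4.17, 6.01 and 2.35 RPM, and the GKAQ controls lay within that range at 3.77, 5.83 and 4.93 RPM. No gene of the list fell in G9a cKO, where 1.05% of all loci rose and 0.737% fell. In cDKO, Kdm3a, a demethylase of H3K9me2, rose from 11.3 to 15.1 RPM in controls to 35.9 and 33.8 RPM (1.45 ± 0.34, adjusted p = 0.000865), and Daxx, a histone chaperone, rose by 0.65 ± 0.19 (adjusted p = 0.0116). Dnmt1, the maintenance DNA methyltransferase, fell from 8860 to 9240 RPM to 6200 and 5840 RPM (-0.58 ± 0.029, adjusted p = 3.57e-86), and Ehmt1 fell as above. So 2 rose and 2 fell in cDKO, where 4.32% of all loci rose and 2.02% fell. For the list, the median log2 change was 0.10 (G9a cKO) and 0.03 (cDKO). The medians of the whole RNA table, -0.31 and 0.20, cannot serve as a comparison. The blood marker without a read took nearly the same values, -0.32 and 0.20, which depth alone sets. All 20 matched genes of the list reached 1 RPM. Whether the list moved relative to other genes was not tested.

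Few loci of the chromosome starts changed in RNA, and the share called lay below that of all loci in both mutants, a difference that was not tested. Of 38540 loci in the table, 1123 have their midpoint in the first 3 Mb of an autosome, 873 of these with a read and 431 with a gene name. A mean of at least 10 RPM in controls was reached by 256, or 22.8%, against 23.2% of all loci. In G9a cKO, 7 loci rose and 4 fell, 0.98% of the region, where 1.79% of all loci were called, and 114 stood at an unadjusted p under 0.05. In cDKO, 37 rose and 20 fell, 5.08% of the region, where 6.34% of all loci were called, and 159 stood at an unadjusted p under 0.05. For the unadjusted counts and for calls in both mutants, shares over all loci are not given here. Called in both mutants were 4 loci.

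Heatr7b2 on chromosome 15, whose CG-poor promoter is shown above, was one of them. Its RNA was 33.6, 31.4 and 29.3 RPM in GKAO controls and 58.9, 59.5 and 81.9 RPM in G9a cKO, and 22.0, 25.0 and 23.7 RPM in GKAQ controls and 58.6 and 39.1 RPM in cDKO. Every mutant library lay above every control. The log2 change was 1.07 ± 0.21 in G9a cKO (adjusted p = 0.0001) and 1.03 ± 0.24 in cDKO (adjusted p = 0.00066). Over its 8 windows, H3K9me2 was 103% and 113% of the rest in controls, 198% and 147% for G9a cKO, and 165% and 130% for cDKO, so the locus had more RNA and a higher share of H3K9me2 reads in both mutants.

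Among other genes that rose in G9a cKO, Xkr4, of the XK family of membrane proteins on chromosome 1, went from 1.17 to 3.14 RPM in controls to 5.84 to 12.2 RPM (log2 change 2.37 ± 0.52, adjusted p = 0.000929). Brsk1, a kinase named for its expression in the brain and shown above with 16 CG, had 3, 0 and 0 reads in controls and 13, 6 and 13 in G9a cKO, a ratio at equal depth of 8.53 (exact 95% interval for counting error 2.67 to 43.5, adjusted p = 0.0225). Akr1c21, an aldo-keto reductase, rose by 1.61 ± 0.48 (adjusted p = 0.0431). It was 4.80, 0.524 and 3.52 RPM in GKAO controls and 4.17, 9.83 and 6.12 RPM in G9a cKO. The GKAQ controls held 8.17, 7.08 and 12.3 RPM, so G9a cKO did not lie above the controls of both prefixes. Lower in G9a cKO were Yif1a, a protein of transport between the endoplasmic reticulum and the Golgi (-2.41 ± 0.51, adjusted p = 0.00046), Zfp438, a zinc finger protein (-1.25 ± 0.29, adjusted p = 0.00273), and Rfpl4, a RING finger protein known from oocytes. Rfpl4 was 354 to 481 RPM in controls and 241 to 340 RPM in G9a cKO (-0.46 ± 0.084, adjusted p = 1.63e-05). Brsk1 was no longer called without GKAO control replicate 2 or 3 or G9a cKO replicate 1 or 3, Akr1c21 without GKAO control replicate 2, G9a cKO replicate 2 or 3 or any GKAQ control, Zfp438 without GKAO control replicate 1 or G9a cKO replicate 2, and Yif1a and Rfpl4 without G9a cKO replicate 2 (adjusted p from 0.0533 to 0.353 in these fits). With precision weights on the recovered reads all 6 genes of this paragraph lost their call, Xkr4 at 0.0579 and the others at 0.0609 to 0.372. Xkr4, Brsk1, Heatr7b2 and Rfpl4 overlap a locus on the other strand, and reads of the 2 strands may have been counted together.

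In cDKO the genes with the largest change were Casd1, which adds acetyl groups to sialic acids, and Gucy1a2, a subunit of soluble guanylate cyclase. Casd1 had 1 read in each control and 9 in each cDKO library, a ratio at equal depth of 10.5 (exact 95% interval for counting error 3.06 to 55.6, adjusted p = 0.00141). Gucy1a2 had no read in the controls and 9 and 6 reads in the cDKO libraries, which makes it at least 2.3-fold higher against a level of 3 reads in the shallowest control (adjusted p = 0.00256). Gm13191 had 4 reads in the controls and 16 in cDKO, a ratio of 6.99 (2.26 to 28.7, adjusted p = 0.0367). Without 1 library, Gucy1a2 was no longer called in 1 fit (cDKO replicate 1, adjusted p = 0.0742), Fam171a1 in 1 (cDKO replicate 2, 0.132) and Gm13191 in 4 (GKAQ control replicate 2 or 3, cDKO replicate 1 or 2). Gm13191 also lost its call with precision weights (0.0538). Fam171a1 lies in the first 250 kb of chromosome 2 and has the CG-poor promoter shown above. Its RNA was 3.77, 3.33 and 2.46 RPM in controls and 12 and 21.9 RPM in cDKO (2.37 ± 0.56, adjusted p = 0.00129), while over its 12 windows H3K9me2 was 78.4% and 95.2% of the rest in controls, with G9a cKO at 89.5% and 84.6% and cDKO at 116% and 115%.

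Others that rose in cDKO were Vmn1r62, a vomeronasal receptor, 9430020K01Rik, Gm13267, 4930423M02Rik and Asb4, an ankyrin repeat and SOCS box protein, with log2 changes from 1.35 (Asb4) to 2.14 (Vmn1r62) and adjusted p from 0.00114 to 0.0445. Ovol1, a zinc finger transcription factor, fell by 1.61 on the log2 scale (adjusted p = 0.0238). Without cDKO replicate 1 none of these 6 was called (adjusted p from 0.0624 to 0.274), and without cDKO replicate 2 only 9430020K01Rik was. With precision weights 4930423M02Rik was not called (0.0618). Of them, 9430020K01Rik, Gm13267, Ovol1 and Vmn1r62 overlap a locus on the other strand, as does Gm13191.

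The 5 named genes of the region with the most RNA were Akap12, Sf3b2, Gdi2, Arid1b and Ccdc117, and 1 of them changed. Akap12, a scaffold for protein kinase A, fell in cDKO from 1040, 996 and 969 RPM to 518 and 553 RPM (-0.91 ± 0.070, adjusted p = 6.71e-35). In G9a cKO it was 877, 920 and 786 RPM against 877, 881 and 788 RPM in controls (adjusted p = 0.848). H3K9me2 over its 11 windows was 81.4% and 73.3% of the rest in controls, 144% and 129% for G9a cKO, and 143% and 118% for cDKO. Both mutants were thus higher at this gene, while its RNA was lower in 1 of them.

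The other abundant genes did not pass in either mutant, and their H3K9me2 went different ways. Ccdc117 on chromosome 11 had 81.7% and 85.4% of the rest in controls, with G9a cKO at 237% and 308% and cDKO at 218% and 191%. At Sf3b2, a splicing factor, controls held 73.4% and 74.5%, G9a cKO 62.7% and 52.6%, and cDKO 131% and 133%. Gdi2, a regulator of Rab proteins, held 65.7% and 66.6% in controls, 43.6% and 84.6% for G9a cKO, and 105% and 86.4% for cDKO. At Arid1b, a subunit of the BAF chromatin remodelling complex with 36 windows, controls held 79.4% and 74.6%, G9a cKO 67.5% and 71.4%, and cDKO 94.8% and 96.4%. At Sf3b2 and Arid1b, G9a cKO was thus below the controls and cDKO above them, the reverse of the order of the mutants over the starts as a whole. The G9a cKO values rest on 14 and 7 reads at Sf3b2, 13 and 15 at Gdi2, and 181 and 114 at Arid1b. At so few reads counting error is large for Sf3b2 and Gdi2, and these differences were not tested.

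At the 4 promoters shown above, the 10 kb window that holds the start site had few reads in the mutants. The Casd1 window held 2.98 and 3.40 RPM in controls, 0.538 and 1.80 RPM in G9a cKO (1 and 2 reads), and 3.48 and 5.85 RPM in cDKO. The Heatr7b2 window held 3.40 and 3.76 RPM in controls, with G9a cKO at 3.77 and 4.51 RPM and cDKO at 6.96 and 3.72 RPM. At Brsk1 the values were 2.98 and 3.19 RPM in controls, 2.15 and 3.61 RPM for G9a cKO, and 2.32 and 6.38 RPM for cDKO. At Fam171a1 they were 4.26 and 3.19 RPM, 7.00 and 5.41 RPM, and 4.64 and 4.25 RPM. Among these 4, both CG-poor windows lay above both CG-rich ones in G9a cKO. That order did not extend to Vmn1r62 (1 CG) and Gm13267 (27 CG), which are not shown. In G9a cKO, Vmn1r62 held 2.69 and 0.0 RPM and Gm13267 3.23 and 0.0 RPM. Nor did it hold in cDKO, where Brsk1 and Heatr7b2 overlapped. The 4 windows shown hold 1 to 13 reads per mutant library, and no difference between them was tested.

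Replicate windows resembled each other less in the shallow libraries. Pearson's r of log2 RPM over member windows was 0.907 between the controls, 0.568 between the G9a cKO libraries and 0.534 between the cDKO libraries, and 0.425 to 0.618 between genotypes. These are correlations across windows of the same libraries, which differ in depth.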

How the data were processed

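Members and gene lists were chosen with earlier results of these data known. The authors deposited both tables as log2 values, with libraries in columns. Neither headers nor labels name the unit, and it was inferred from the values as log2 RPM: in each library 100% of values were whole reads within a tolerance of 0.05 read, and features without a read stood at 0.9 read. The submitters' processing notes name Trim Galore, Bowtie2, HISAT2 2.1.0, Bismark 0.19.0 and the build GRCm38. The filter behind the 10 kb windows is not given in the sources used here, and 4 other columns of per-sample values were not used. For densities and blocks, reads were summed on the linear scale with 0 reads as 0, which depth does not shift. For single windows and RNA the deposited log2 values were tested, so empty features differ with depth. RNA libraries were scaled to 1458868 to 2399680 reads.

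Groups follow the genotype labels and, for RNA, the title prefix. Replicate numbers follow accession order and pair nothing. Some RNA titles share a number across genotypes, and the labels do not say what it marks. It entered no main fit and was tried as a block. Models were fitted by limma (version 3.58.1; R 4.3.3 and its package data.table, version 1.17.8), with 1 mean per genotype, trend, robust variance, two-sided p and Benjamini-Hochberg over all features tested. Blocks needed reads in at least 50% of windows, which all 19 start blocks had. Exact permutation tests used scipy 1.17.1 in Python 3.11.15, tables pandas 2.3.3 and figures matplotlib 3.10.9. The code was tested on simulated data. Gene names come from the deposited tables, and promoters and gene content from RefSeq (GRCm38.p6), which matches the build named in the notes. Named windows and genes were, per contrast, up to 10 called with the largest change, plus the 5 highest in controls (windows) or over all libraries (genes). Genes of chromosome 18 were not looked up for promoters. Alternatives are in the closing section. The count tests that had been planned were replaced by limma precision weights on recovered reads, because the tables hold log2 values.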

Additional observations from a re-analysis of the deposited data

How the results depend on the processing

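All alternatives were run on the same 6 H3K9me2 or 11 RNA libraries, and where 1 library of a genotype was left out, the remaining one was assumed to vary like the others. The planned edgeR and DESeq2 fits were not run, since the tables hold log2 values; precision weights, the block on RNA title numbers, the ratios without chromosome 14 and those without the first 250 kb were chosen after seeing the data. No paired analysis was possible for H3K9me2 because its title numbers differ between genotypes. Limits: 2 libraries per genotype, mutant libraries several times shallower than controls, no input in the values, and relative scaling. At a median of 4 to 7 reads per member window in the mutants, counting error of single windows is large. The cause of each change below was not tested. Shares called over all blocks, windows or loci in these fits are not given here.

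Start blocks called higher ranged from 17 to 19 in G9a cKO and from 10 to 18 in cDKO when 1 library was left out, and with all libraries stayed within 1.5 times of 19 and 17 except with the median of windows, which gave 12 and 7. Blocks called lower in cDKO than in G9a cKO (5) ranged from 0 to 10 without 1 library, and were 9 with precision weights, 1 with centring on the median block and 1 with the median of windows. With that median, changes reversed on chromosome 4 (-0.002 in G9a cKO, -0.022 in cDKO), chromosome 6 (-0.088, -0.012), chromosome 13 (-0.089 in cDKO) and chromosome 19 (-0.015 in G9a cKO). The uncalled chromosome 13 change in cDKO was also -0.001 with precision weights and ranged from -0.066 to 0.073 without 1 library.

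Member windows called higher in G9a cKO (255) were 1021 with precision weights, 610 over all windows of the table, 106 with a mean of at least 5 reads, 489 with centring, and 0 to 184 without 1 library. Those in cDKO (0) were 379 with precision weights, 169 over all windows, and 0 to 92 without 1 library. Those lower in cDKO than in G9a cKO (0) were 1 with precision weights and 0 to 9 without 1 library. Of the members highest in controls, chr18:4440001-4450000 and chr18:4840001-4850000, neither called, ranged from -1.318 to 0.273 and from -1.234 to 0.438 without 1 library.

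The mean log2 ratio over all libraries was near 0 and changed sign often. Against the rest it was -0.027 in the first 1 Mb and ranged from -0.015 to 0.071 without 1 library. Against the next 3 Mb it was -0.051 in the first 1 Mb, -0.035 with medians, -0.017 over all windows, and -0.011 to 0.02 without 1 library. Against the last 3 Mb it was 0.007 over all windows, 0.011 without chromosome 14, and -0.062 to 0.012 without 1 library. Differences between genotypes kept their sign except 1: in the first 1 Mb they were 0.554 (G9a cKO) and 0.385 (cDKO), without the first 250 kb 0.367 (G9a cKO), and with medians 0.262 (G9a cKO), 0.0 (cDKO minus G9a cKO), and in the first 250 kb 0.757 (G9a cKO) and -0.096 (cDKO minus G9a cKO).

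RNA loci called higher in G9a cKO (7) were 4 with precision weights and 3 to 9 without 1 library, and those called lower (4) were 1 and 1 to 5. In cDKO, 17 to 37 were called higher and 12 to 21 lower without 1 library. With the title number of the RNA libraries as a replicate block (without robust variance, since few degrees of freedom remain), 7 were called higher and 12 lower in G9a cKO, and 13 higher and 9 lower in cDKO, where the block leaves 1 pair of libraries to carry the comparison. Of the genes named, Brsk1 (adjusted p = 0.101), Akr1c21 (0.233) and 9 of the 10 with the largest change in cDKO, all but 9430020K01Rik, were not called (0.0811 to 0.348). Deviations from the genotype means correlated at 0.011 to 0.113 over the 4 GKAO pairs that share a number and at -0.122 to 0.003 over the 5 that do not, each GKAO library correlating best with its own number. These are hints from the data, not the design.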
